A study of Mus musculus with 45 samples.

Results

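Gene scores of 39 genes of DNA replication and mitosis were examined in red cell precursors with and without Stag2. The genes were a list of cell cycle genes drawn up by name, and all 39 occurred among the 24333 genes of the score table. By role they were 9 genes of origin licensing and firing (Mcm2, Mcm3, Mcm4, Mcm5, Mcm6, Mcm7, Cdc6, Cdt1, Gins2), 4 of the replication fork (Pcna, Pola1, Pold1, Pole) and 3 of nucleotide supply (Rrm1, Rrm2, Tyms). A further 5 encoded cyclins and their kinase (Ccne1, Ccna2, Ccnb1, Ccnb2, Cdk1), 7 controlled mitosis (Cdc20, Plk1, Aurka, Aurkb, Bub1, Bub1b, Birc5) and 6 acted on spindles and chromosomes (Mki67, Top2a, Cenpe, Cenpf, Kif11, Tpx2). The last 5 act in G1 (Ccnd2, Ccnd3, Cdk6, E2f1, E2f4).

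Dividing erythroblasts load the Mcm helicase on replication origins in G1, copy their DNA in S phase and separate it in mitosis, and they leave the cell cycle before the nucleus is expelled. D-type cyclins with Cdk4 or Cdk6 phosphorylate the retinoblastoma proteins, which frees E2F factors to drive the genes of DNA synthesis, while a later wave of mitotic genes is driven through CHR elements and CCAAT boxes. E2f4 is an E2F that represses these genes in resting cells, and mice without E2f4 or without Ccnd3 have defects of red cell formation.

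Nuclei were taken from Ter119+ erythroblasts (red cell precursors), either Stag2 WT or Stag2 KO, 6 to 8 weeks after the final dose of pIpC, which both genotypes received per the series design and which serves to induce gene deletion. Stag2 is a subunit of cohesin. The driver of the deletion and the age of the mice are not given in the sources used here, and neither is whether 1 library is 1 mouse, so p-values measure only the spread between these libraries, which may be technical. The series has 45 samples, and 6 were used: each genotype had 3 ATAC libraries, prepared together with RNA on the 10x multiome platform, and the RNA was not analysed here.

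A gene score sums ATAC fragments around a gene, so it measures accessibility and not expression, and genes that lie close together share fragments. For each library the mean score over its nuclei was taken and set to a sum of 1000000 over genes. Scores were compared between libraries for the same gene, and they were not divided by gene length here. Whether the deposited scores already allow for gene length was not examined.

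WT libraries held 5819 to 6990 nuclei and KO libraries 4617 to 4925, with median fragments per nucleus of 7122.5 to 8056 and 7742 to 8874. Fragment ends in peaks made up a median of 62.2 to 64.7% in WT and 57.4 to 59.9% in KO, so the genotypes did not overlap in this measure. The authors' class Int, read here as intermediate, held 2043 to 3999 nuclei per library and the class Late 2176 to 4527. Early held 310 nuclei in KO replicate 1, 16 to 25 in the other KO libraries and 20 to 235 in WT, and was too small to fit. Int made up 32.6 to 57.2% of a library, so values over all nuclei also carry the mix of classes. Within Int, WT replicate 3 stood apart, with a median share in peaks of 61.9% against 55.1 to 56.8% and a median of 10121 fragments against 12671 to 14998. All 9 erythroid markers passed the filter on low scores. The summed score of 9 erythroid markers was 1853 to 1983 in WT and 1622 to 1737 in KO, and that of 6 stem and progenitor markers was 57.3 to 67.3 in WT and 71.6 to 83.1 in KO. Sums over the myeloid (7 genes, 56.0 to 60.5 in WT and 69.4 to 72.7 in KO), B cell (5 genes, 67.2 to 73.2 and 77.3 to 83.6), T and NK cell (5 genes, 23.0 to 26.9 and 29.0 to 33.8), megakaryocyte (4 genes, 178 to 205 and 212 to 229), mast cell (3 genes, 6.87 to 8.37 and 9.37 to 10.7) and stroma (4 genes, 40.3 to 46.2 and 48.0 to 54.4) lists were also higher in every KO than in every WT library. The megakaryocyte markers went both ways, with Itga2b at a mean of 51.2 in WT and 89.2 in KO and Gp9 at 117 and 99.7, and of the 3 tested 1 was called higher and 1 lower. Beside genes of like mean score (level-decile centring), the median log2 fold change in all nuclei was -0.12 for the erythroid list, 0.02 for stem and progenitor, -0.09 for myeloid, 0.06 for B cell, -0.06 for T and NK cell, 0.00 for megakaryocyte and -0.06 for stroma markers, with 6 erythroid markers called lower, 1 megakaryocyte marker called higher and no mast cell marker past the filter. These medians cover only markers past the filter, namely 9 erythroid, 6 stem and progenitor, 5 myeloid and 4 B cell markers. For the T and NK cell, megakaryocyte and stroma lists they cover 2, 3 and 3 markers. No marker was at 0 in any library. The part of these markers and of the share in peaks in the results below was not tested, except where a value standardised for the share in peaks is given.

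Promoters of replication and mitosis genes are known for the sites that tie them to the cell cycle, and 4 are shown for that reason. RefSeq windows of GRCm38.p6, from 250 bases before to 50 bases after a start, were found for 31 of the 39 genes (33 windows); none was found for Mcm4, Gins2, Pole, Ccna2, Aurkb, Tpx2, Ccnd2 and E2f4. Both strands were searched for letters of 4 kinds of motif. For E2F the letters TTCCCGC were searched, with TTGGCGC as the other spelling of that site. For the CHR they were TTTGAA, with TTCGAA as the other spelling of that element. CCAAT boxes were searched by those letters. For factors of the GATA family the letters TGATAA were searched, with AGATAA as the other spelling of that site. ATTGG, which is CCAAT on the other strand, shares its last letters with the start of TTGGCGC, so that a match to both can overlap. An E2F motif was present in 7 of 8 windows of origin licensing genes, against 6.81% of 32851 RefSeq windows. A CHR motif was present in 5 of 6 windows of mitotic control genes and in 4 of 5 of spindle and chromosome genes, against 19.2% of all windows. CCAAT occurred in 24 of the 33 member windows and in 37.4% of all windows, while a GATA motif occurred in 1 of 33 (Top2a) and in 18.6%. Member windows had a median of 25 CpG and 59.3% GC, against 7 and 52.7% for all windows. These matches describe the letters only.

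The 250 bases before the start follow, 5' to 3' on the strand of the gene, with every match in capitals. Mcm6 stands for the licensing genes, with 2 E2F motifs and 2 CCAAT boxes, both read on the other strand as ATTGG. Cdk1 holds 1 E2F motif and, nearer to the start, 2 CHR motifs. Bub1, with the lowest fold change of the 39 in all nuclei, shows its pair of CCAAT boxes, and its CHR lies past the start and is not printed. The upstream start of Ccnd3, at which the score table begins the gene, holds none of these motifs.
Mcm6, chr1:128359706-128359955 (minus strand): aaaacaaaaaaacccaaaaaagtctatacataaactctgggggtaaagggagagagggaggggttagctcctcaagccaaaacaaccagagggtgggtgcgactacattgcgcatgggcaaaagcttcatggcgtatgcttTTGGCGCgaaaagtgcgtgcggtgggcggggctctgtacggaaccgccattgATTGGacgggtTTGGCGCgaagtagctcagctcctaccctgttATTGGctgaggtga
Cdk1, chr10:69352913-69353162 (minus strand): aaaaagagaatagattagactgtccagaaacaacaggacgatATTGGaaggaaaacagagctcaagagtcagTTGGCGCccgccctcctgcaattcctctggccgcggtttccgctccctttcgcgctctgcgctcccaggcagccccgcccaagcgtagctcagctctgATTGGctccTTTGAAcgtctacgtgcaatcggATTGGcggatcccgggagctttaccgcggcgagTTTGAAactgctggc
Bub1, chr2:127831860-127832109 (minus strand): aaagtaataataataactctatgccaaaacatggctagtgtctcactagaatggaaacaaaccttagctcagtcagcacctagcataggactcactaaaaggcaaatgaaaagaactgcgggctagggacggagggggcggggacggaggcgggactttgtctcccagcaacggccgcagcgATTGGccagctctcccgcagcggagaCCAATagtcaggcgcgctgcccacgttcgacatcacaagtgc
Ccnd3, chr17:47504801-47505050 (plus strand): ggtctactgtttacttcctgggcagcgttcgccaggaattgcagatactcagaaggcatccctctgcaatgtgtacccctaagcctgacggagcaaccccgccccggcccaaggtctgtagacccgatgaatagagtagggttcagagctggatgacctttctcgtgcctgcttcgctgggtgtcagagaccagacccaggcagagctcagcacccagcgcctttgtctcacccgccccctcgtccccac

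Scores of most of these genes differed little between KO and WT nuclei. The largest rise was in G1, where the D-type cyclin gene Ccnd2 was higher in KO by 0.57 on the log2 scale. Ccnd3, another D-type cyclin gene, was lower by 0.19 (log2 fold change -0.19). Genes of like mean score had a median log2 fold change of 0.26 for Ccnd2 and -0.07 for Ccnd3. Lower calls in all nuclei that were kept under all alternatives were those of Ccnd3 and the polymerase gene Pole. Fold changes of replication and mitosis genes were mostly slightly below 0, with a median log2 fold change over the 39 members of -0.08 in all nuclei, -0.08 in Int and -0.09 in Late, while the median over all genes tested was 0.10, 0.06 and 0.05. The fold change of a member was below 0 in 34, 33 and 36 of 39 genes.

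A gene was called, or said to have risen or fallen, where its two-sided adjusted p by limma (Benjamini-Hochberg over all genes tested) was under 0.05, and fold changes are on the scale of log2(score + 1). A mean over nuclei cannot tell fewer open nuclei from less accessibility per nucleus. Counts past the test were read against the share of all genes called, a share that changed with the mean score, as given further below. All 39 members had a mean score of at least 5 and entered each fit. Many genes had no overlap between genotypes. Every KO library lay above every WT library at 6377 of 17682 genes in all nuclei, and below at 3417. These counts were 4447 and 2808 of 19465 genes in Int and 5845 and 3606 of 15886 in Late. Of the 39 members, 1 lay above in each fit, and 15, 14 and 21 lay below in all nuclei, Int and Late. In all nuclei 8 members fell (Mcm6, Pole, Plk1, Bub1, Cenpf, Tpx2, Ccnd3, E2f1), where 14.2% of 17682 genes fell, and 1 rose (Ccnd2), where 29.1% rose. In Int nuclei 4 fell (Mcm4, Cenpf, Ccnd3, E2f1) with 7.1% of 19465 genes called lower, and 1 rose (Ccnd2) with 12.7% called higher. In Late nuclei 13 fell (Mcm3, Mcm6, Pole, Cdk1, Plk1, Bub1, Mki67, Cenpe, Cenpf, Tpx2, Ccnd3, E2f1, E2f4) with 18.5% of 15886 genes called lower, and 1 rose (Ccnd2) with 32.9% called higher. The counts depended on single libraries. The 8 lower calls became 4 without WT replicate 3 (13.1% of all genes called lower) and 5 without KO replicate 2 (10.4%). The 4 in Int became 1 without KO replicate 1 (4.9%) and 2 without WT replicate 1 (5.0%) or KO replicate 3 (6.0%). The 13 in Late became 8 without KO replicate 2 (14.3%).

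**Figure D1:**
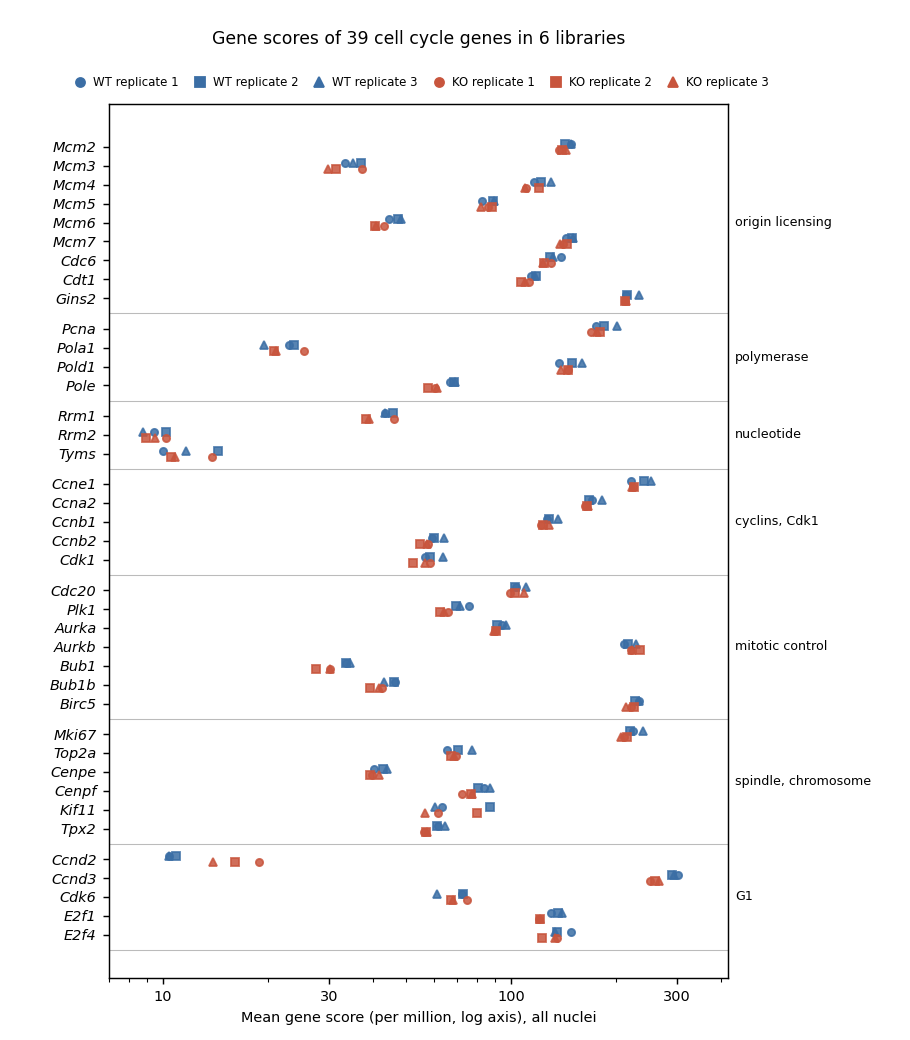
Mean gene score on the scale of 1000000 per library (log axis) of each of the 39 genes in all nuclei, 1 point per library, blue for WT and red for KO, with the shape giving the replicate number. The KO points of Ccnd2 (13.9 to 18.9) all lie to the right of its WT points (10.4 to 10.9), and the points of most other genes nearly meet.

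The fold change moved with the level of a gene, so the members were also set beside genes of like mean score. Split into 10 equal bins by mean score, all genes had median log2 fold changes of 0.26 in the lowest bin and -0.07 in each of the 3 highest bins in all nuclei. Of the 39 members, 25 were in these 3 bins. Members lay below the median of their own bin in 27 of 39 cases in all nuclei, 27 in Int and 32 in Late, and the median distance was -0.02, -0.03 and -0.04 on the log2 scale.

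With each bin centred on its own median (level-decile centring), which shifts the median of all genes in all nuclei from 0.10 to 0.00, the split of calls became 7 lower (13.3% of all genes) and 2 higher (15.7%) in all nuclei. In Int nuclei it was 2 lower (8.12%) and 2 higher (11.6%), and in Late nuclei 10 lower (17.9%) and 0 higher (19.4%). Ccnd3, Pole, Mcm6 and Bub1 were among the lower calls with this centring in all nuclei and in Late. E2f1 missed with this centring (adjusted p = 0.073 in all nuclei, 0.056 in Int and 0.051 in Late). Rrm2, Tyms and Bub1b were called lower in all nuclei with this centring, Tyms in Int, and Rrm1, Rrm2 and Tyms in Late. Centring on the median of all genes instead gave 28 lower calls in all nuclei, 16 in Int and 28 in Late, while the share of all genes called lower became 31.2%, 21.6% and 28.2%.

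**Figure D2:**
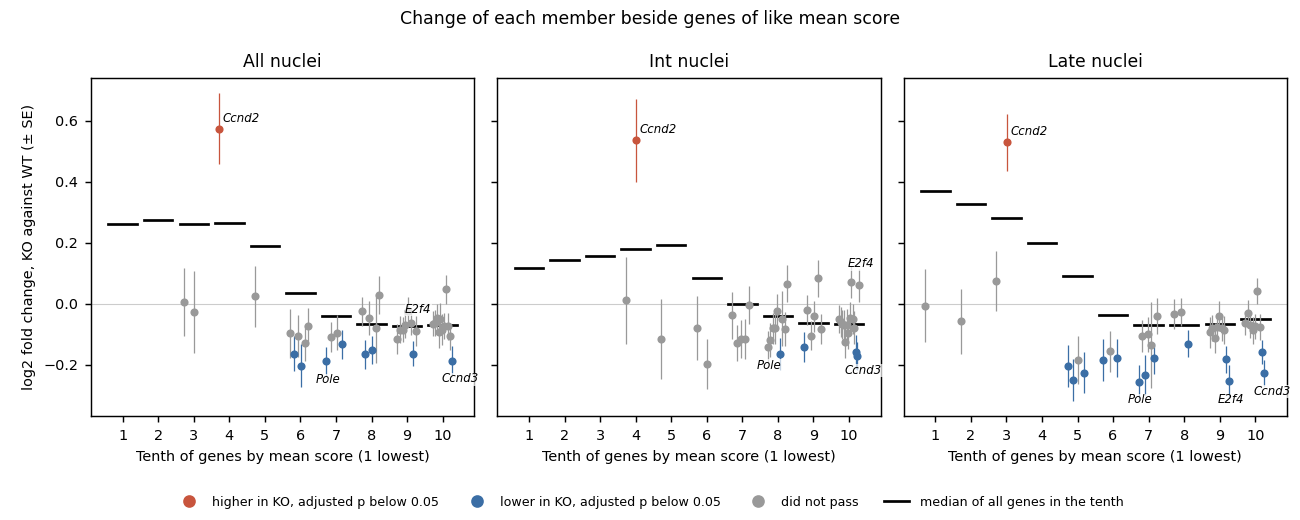
Log2 fold change of KO against WT with its SE for each member, placed by the bin of mean score (1 to 10) to which it belongs, in all, Int and Late nuclei. Black bars are the median of all genes of a bin, red and blue points passed the test and grey points did not. Most members sit in the upper bins close to the black bars, and Ccnd2 lies above the bar of its bin at 0.57 in all nuclei.

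Ccnd2 (chr6:127125708-127151048, minus strand, mm10) scored 10.4, 10.9 and 10.4 in WT, against 18.9, 16.1 and 13.9 for KO, given here and below in the order of replicate 1, 2 and 3. Every KO library lay above every WT library. The log2 fold change was 0.57 (SE 0.12, adjusted p = 0.00097), and the call was kept under all 18 alternatives that tested it, at 0.29 to 0.68. Ccnd2 in Int nuclei scored 12.5, 11.95 and 11.3 against 20.2, 17.9 and 15.2. Its log2 fold change there of 0.54 (SE 0.14, adjusted p = 0.0053) missed without KO replicate 1 (0.44, adjusted p = 0.076). In Late nuclei Ccnd2 scored 8.94, 8.62 and 9.08 against 13.0, 14.4 and 12.5, with the genotypes apart (0.53, SE 0.09, adjusted p = 0.00041). Genes of like mean score were also higher in KO: the median of the bin of Ccnd2 was 0.26 in all nuclei, 0.18 in Int and 0.28 in Late. Of the genes in its bin, 47.45% were called higher in all nuclei, 14.8% in Int and 54.5% in Late. In Late the call was lost with level-decile centring (0.24, adjusted p = 0.053), and with nuclei standardised for the share in peaks the value was 0.21 (adjusted p = 0.32). The only other tested gene within 100 kb, 9330179D12Rik at 1659 bp, was higher too in all nuclei (0.35, adjusted p = 0.018). The score table starts Ccnd2 1140 bp downstream of the RefSeq start.

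Ccnd3 (chr17:47505051-47599689, plus strand) scored 302, 289 and 293 in WT and 251, 259 and 267 in KO. The genotypes did not overlap. The log2 fold change of -0.19 (SE 0.05, adjusted p = 0.0048) kept its call under all 19 alternatives, at -0.33 to -0.11. In Late nuclei the scores were 296, 282 and 284 in WT and 234, 246 and 256 in KO. The fall there of 0.23 on the log2 scale (SE 0.04, adjusted p = 0.00056) was likewise kept under all 19 alternatives, among them the one standardised for the share in peaks. Int nuclei scored 316, 300 and 300 in WT and 268, 275 and 277 in KO. There the log2 fold change of -0.16 (SE 0.05, adjusted p = 0.040) was kept under 9 of 20 alternatives and was -0.09 (adjusted p = 0.13) with level-decile centring. It also missed without any 1 of WT replicate 1 and KO replicates 1, 2 and 3. Of 3 tested genes within 100 kb, Taf8, 2764 bp upstream, fell by 0.11 on the log2 scale in all nuclei (adjusted p = 0.044), and the other 2 rose.

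E2f1 (chr2:154559400-154569892, minus strand), an activating E2F, scored 130, 136 and 140 in WT and 121, 121 and 121 in KO, with no overlap. It fell in all nuclei (-0.16, SE 0.04, adjusted p = 0.0052), in Int (-0.17, SE 0.05, adjusted p = 0.0078) and in Late (-0.18, SE 0.04, adjusted p = 0.0038), and each of these calls was lost with level-decile centring. Scores were 155, 152 and 159 against 137, 136 and 139 in Int and 118, 123 and 116 against 102, 108 and 104 in Late. Of 6 tested genes within 100 kb, 1 was lower in all nuclei. Cdk6, the kinase partner of D-type cyclins, scored 72.2, 72.8 and 61.1 in WT and 74.8, 67.0 and 68.1 in KO. Its genotypes overlapped, and the log2 fold change was 0.03 with a 95% interval of -0.10 to 0.16. In Int nuclei Cdk6 was 70.8, 71.7 and 59.2 against 71.9, 71.1 and 67.5 (0.07, adjusted p = 0.48), and in Late 70.5, 64.4 and 62.5 against 61.4, 62.7 and 67.8 (-0.04, adjusted p = 0.58), so the sign differed between classes with neither past the test. No other tested gene started within 100 kb of Cdk6.

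E2f4 (chr8:105297663-105305370, plus strand) had opposite signs in the 2 classes. Int nuclei scored 155, 138 and 140 in WT and 158, 141 and 152 in KO, with overlap (0.06, SE 0.05, adjusted p = 0.46). Late nuclei scored 146, 135 and 125 in WT and 116, 108 and 116 in KO, with every KO library below every WT library (-0.25, SE 0.06, adjusted p = 0.0018). In all nuclei E2f4 did not pass (149, 135 and 134 against 136, 122 and 134, adjusted p = 0.15). Within a library, Late less Int was -0.08, -0.02 and -0.16 in WT and -0.43, -0.38 and -0.39 in KO on the log2 scale. The difference of the KO effect, Late less Int, was -0.31 (SE 0.07) and did not pass over all genes (limma, adjusted p = 0.085, unadjusted p = 0.0023).

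No member passed that test of the difference, in which 0.221% of 15873 genes were called, and at an unadjusted p under 0.05 there was 1 member of 39, E2f4, against 17.6% of all genes. The result for E2f4 rested on settings: its adjusted p was 0.033 with a minimum mean score of 20, 0.044 without WT replicate 3 and 0.00062 with the variance trend fitted on the mean score, an alternative chosen after seeing the data. It was 0.29 with both classes standardised for the share in peaks, also chosen afterwards, where the difference was -0.24. So standardised, the Late effect itself was -0.17 (adjusted p = 0.066). Late nuclei had a median share in peaks of 64.1 to 66.4% in WT and 60.3 to 61.8% in KO. Exoc3l, 1565 bp upstream of E2f4, was below 0 in both classes (-0.10, adjusted p = 0.18, in Int and -0.38, adjusted p = 5.0e-05, in Late). Of 15 tested genes within 100 kb of E2f4, 2 were lower in Int and 5 in Late, and 5 and 2 were higher.

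**Figure D3:**
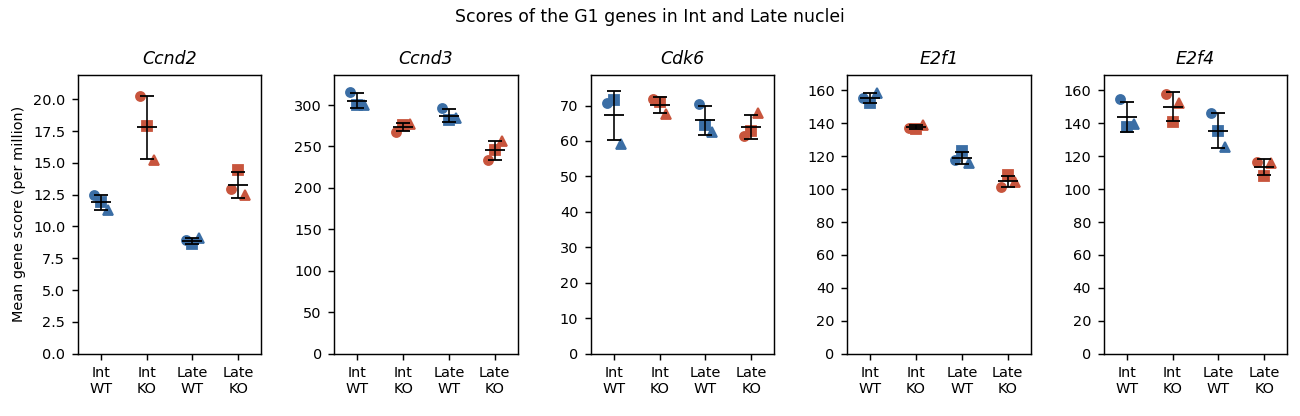
Mean gene score, on the scale of 1000000 per library, of the 5 G1 genes in Int and Late nuclei, 1 point per library with the mean and SD of 3 libraries in black, blue for WT and red for KO, axes from 0. Ccnd2 is higher and Ccnd3 and E2f1 are lower in KO in both classes, while for E2f4 only the Late KO points (108 to 116) lie below the WT points of their class (125 to 146).

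Of the 9 origin licensing genes, which load and start the replicative helicase, all had fold changes below 0 in all nuclei and 1 passed, where 14.2% of all genes were called lower. Beside genes of like mean score (level-decile centring), 6 of the 9 were below 0 and 3 above, with a median of -0.02. Mcm6 (chr1:128331575-128359705), a helicase subunit, was the lowest, at 44.5, 47.4 and 48.3 in WT and 43.1, 40.7 and 40.9 in KO. It fell by 0.16 on the log2 scale (SE 0.06, adjusted p = 0.030), but missed without WT replicate 2 or 3 or KO replicate 2 or 3 (adjusted p up to 0.092). In Late nuclei Mcm6 fell by 0.25 (SE 0.07, adjusted p = 0.0075), from 38.9, 34.3 and 34.8 to 29.3, 31.1 and 29.8, and in Int its -0.13 did not pass (54.9, 61.1 and 58.1 against 53.8, 52.5 and 52.4, adjusted p = 0.12). Mcm5 was the highest of the group, at 82.3, 88.5 and 89.3 against 85.8, 87.9 and 81.8, and its interval of -0.12 to 0.07 held 0.

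Mcm3 passed in Late only, at 29.6, 29.5 and 29.7 in WT and 27.3, 24.9 and 24.6 in KO (-0.20, SE 0.07, adjusted p = 0.022), and there it missed without WT replicate 2 or KO replicate 2 or 3. In Int Mcm3 scored 39.6, 43.0 and 38.9 against 44.1, 39.3 and 35.1 and the genotypes overlapped (adjusted p = 0.77). Mcm4 passed in Int, at 123, 126 and 132 in WT and 112, 123 and 111 in KO (-0.14, SE 0.05, adjusted p = 0.045), a call kept under 9 of 20 alternatives and lost without WT replicate 3, KO replicate 1 or KO replicate 3. In Late its -0.09 did not pass (114, 120 and 128 against 112, 119 and 109). The start of Mcm4 lies 466 bp from that of Prkdc on the other strand, so the pair share fragments. The remaining licensing genes (Mcm2, Mcm7, Cdc6, Cdt1 and Gins2) had log2 fold changes of -0.09 to -0.05 in all nuclei, and none passed. Mcm7 starts 159 bp from Ap4m1 on the other strand, so these 2 genes share fragments as well.

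Among the fork genes Pole, the catalytic subunit of the leading-strand polymerase (chr5:110286319-110337453), was the lowest and Pola1, the catalytic subunit of the priming polymerase, the highest. Pole scored 66.9, 68.7 and 69.2 in WT and 60.3, 57.6 and 61.4 in KO. The genotypes were apart, and the fall of 0.19 on the log2 scale (SE 0.05, adjusted p = 0.0046) was kept under all 19 alternatives. Late nuclei gave 62.7, 67.1 and 63.0 against 54.7, 50.4 and 56.1 (-0.26, SE 0.06, adjusted p = 0.0020) and Int 75.4, 70.5 and 73.8 against 65.4, 66.3 and 67.0 (-0.14, SE 0.05, adjusted p = 0.052). Standardised for the share in peaks, the Late value of Pole was -0.18 (adjusted p = 0.080). Pole starts 151 bp from Pxmp2, a gene on the other strand that was lower as well (-0.22 in all nuclei, adjusted p = 0.00074), and the score cannot tell the 2 genes apart. Pola1 scored 23.0, 23.8 and 19.5 against 25.5, 20.8 and 21.1 in all nuclei, with wide overlap. Its sign differed between Int (36.8, 33.5 and 24.9 against 31.4, 28.6 and 28.8, adjusted p = 0.63) and Late (15.3, 12.7 and 12.04 against 14.2, 14.4 and 13.6, adjusted p = 0.54). Without WT replicate 3, Pola1 was called lower in Int (-0.24, adjusted p = 0.037). Pcna, the sliding clamp, and Pold1 were at -0.09 and -0.05 in all nuclei and did not pass.

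No gene of nucleotide supply passed in any of the 3 fits as they stand, while beside genes of like mean score 2 of 3 were lower in all nuclei (13.3% of all genes), 1 of 3 in Int (8.12%) and 3 of 3 in Late (17.9%). Rrm1, the large subunit of ribonucleotide reductase, scored 43.5, 45.8 and 43.4 in WT and 46.2, 38.3 and 38.99 in KO, with overlap from KO replicate 1 (-0.11, SE 0.07, adjusted p = 0.21). Without that library Rrm1 was called lower (-0.19, adjusted p = 0.036). It was also called lower in all nuclei standardised for fragments or for the share in peaks, both of which leave out Early. In Int nuclei Rrm1 scored 54.6 to 60.8 in WT and 50.9 to 58.1 in KO, so the genotypes overlapped there too. KO replicate 1 held the most Early nuclei, in which Rrm1 scored 81.0, against 27.3 ± 1.051 in Late nuclei of KO (SD, n = 3). The part of Early nuclei in the overlap was not tested. Rrm2, the small subunit, scored 9.40, 10.2 and 8.77 against 10.2, 8.90 and 9.45, with a 95% interval of -0.23 to 0.24. In Int Rrm2 was 11.9, 12.3 and 10.2 against 11.98, 11.4 and 11.3 (0.01) and in Late 7.95, 7.48 and 6.76 against 6.76, 6.78 and 7.64 (-0.06), with neither past the test. With level-decile centring Rrm2 was called lower in all nuclei (-0.26, adjusted p = 0.016), where the median of genes of its level was 0.26. Tyms, thymidylate synthase, was at -0.03 in all nuclei and became -0.29 (adjusted p = 0.045) under that centring. In Late nuclei so centred, Rrm1 was at -0.28 (adjusted p = 0.0084), Rrm2 at -0.39 (adjusted p = 0.0096) and Tyms at -0.39 (adjusted p = 0.016), and in Int Tyms was at -0.31 (adjusted p = 0.039). Uncentred, the Late values of Rrm1, Rrm2 and Tyms were -0.18, -0.06 and -0.01, where the medians of genes of their level were 0.09, 0.33 and 0.37. Late scores of Tyms, at 5.37 to 7.50 in WT and 6.29 to 6.62 in KO, and of Rrm2 lay near the filter of 5. Standardised for the share in peaks, none of these 3 genes was called in Late.

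The cyclins and Cdk1, which drive S phase and entry into mitosis, had fold changes below 0 for 5 of 5 genes in all nuclei and in both classes, and 1 passed, in Late, where 18.5% of all genes were called lower. With level-decile centring 5, 3 and 5 of them were below 0 in all nuclei, Int and Late, and none was called. Cdk1 in Late nuclei scored 44.8, 41.0 and 37.5 in WT and 36.9, 35.3 and 35.8 in KO (-0.18, SE 0.07, adjusted p = 0.038), the groups lay close, and the call was kept under 10 of 19 alternatives. It was lost without any 1 of WT replicates 1 and 2 and KO replicates 1, 2 and 3. In Int Cdk1 was 79.6, 77.7 and 83.2 against 76.6, 72.7 and 78.1 (adjusted p = 0.29). Ccnb2 was the lowest of the group in all nuclei, at 59.4, 60.1 and 64.0 against 57.8, 54.9 and 57.2 (-0.11, adjusted p = 0.082), and Ccnb1 the highest, at 127, 129 and 137 against 121, 124 and 128 (-0.07, adjusted p = 0.18). Ccne1, the G1/S cyclin, and Ccna2, the S phase cyclin, were at -0.09 and -0.07 without a call.

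Mitotic control genes included the lowest fold change of all members in all nuclei and in Int, that of the checkpoint kinase Bub1 (chr2:127800200-127831859). Bub1 scored 33.4, 33.5 and 34.5 in WT and 30.2, 27.4 and 30.2 in KO, with the genotypes apart (-0.20, SE 0.07, adjusted p = 0.027). The call was lost without WT replicate 1 or 3 or KO replicate 2 (adjusted p up to 0.13). In Late Bub1 was 32.8, 34.0 and 36.3 against 29.9, 27.6 and 30.2 (-0.23, SE 0.07, adjusted p = 0.013, and 0.060 without KO replicate 2), and in Int 34.6, 32.9 and 33.3 against 30.3, 27.2 and 30.2 (-0.20, adjusted p = 0.093). Beside genes of like mean score, Bub1 was among the lower calls in all 3 fits.

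Aurkb, the kinase of the chromosomal passenger complex, had the highest fold change of this group at 211, 217 and 229 in WT and 221, 234 and 223 in KO (0.05, adjusted p = 0.41), and with level-decile centring it was called higher (0.11, adjusted p = 0.027). Cdc20, which activates the anaphase-promoting complex, was above 0 in Int (93.0, 100.4 and 115 against 103, 109 and 114, adjusted p = 0.35) and below in Late (109, 106 and 104 against 97.6, 98.0 and 104, adjusted p = 0.12). Without WT replicate 3, the library that stood apart in Int, Cdc20 was called higher there (0.17, adjusted p = 0.042). The gene scored as Plk1, a kinase of mitotic entry, fell in all nuclei (75.8, 69.4 and 71.3 against 66.0, 62.3 and 64.3, -0.17, SE 0.05, adjusted p = 0.012). In all nuclei it missed without WT replicate 1 or KO replicate 2 (adjusted p = 0.055 and 0.0503), and with level-decile centring its value was -0.10 (adjusted p = 0.11). It was kept under 13 of 19 alternatives. In Late it fell as well (77.6, 69.1 and 64.5 against 62.8, 59.1 and 57.0, -0.23, adjusted p = 0.0090, and -0.12, adjusted p = 0.37, standardised for the share in peaks), while Int did not pass (72.6, 70.3 and 76.3 against 69.2, 66.3 and 71.8, adjusted p = 0.31). The score table starts Plk1 at the start of Dctn5, 26394 bp upstream of the RefSeq start of Plk1, so this score also takes in the Dctn5 promoter. Dctn5 itself was at -0.08 (adjusted p = 0.20), and Palb2, on the other strand 95 bp away, at -0.07 (adjusted p = 0.28). Aurka, Bub1b and Birc5 were at -0.06, -0.13 and -0.07 without a call, though Bub1b was called lower with level-decile centring (-0.17, adjusted p = 0.017), and Aurka starts 127 bp from Cstf1 on the other strand.

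All 6 spindle and chromosome genes were below 0, with 2 lower calls in all nuclei, 1 in Int and 4 in Late, where 14.2%, 7.1% and 18.5% of all genes were called lower. With level-decile centring 0 of the 6 were called in any of the 3 fits, and 5, 5 and 6 were below 0. Cenpf, a kinetochore protein, was lowest, at 83.5, 80.6 and 87.1 in WT and 72.0, 76.7 and 77.1 in KO (-0.15, SE 0.05, adjusted p = 0.016, and 0.060 without WT replicate 3 or 0.080 without KO replicate 1). Cenpf was also called lower in Int (-0.17, SE 0.05, adjusted p = 0.026), but not without WT replicate 1 or 3 or KO replicate 1. In Late it was called lower (-0.13, SE 0.05, adjusted p = 0.026), but not without WT replicate 2 or 3 or KO replicate 1 or 2, and with level-decile centring it missed in each (-0.09, -0.13 and -0.07). Top2a, topoisomerase II alpha, was highest, at 65.2, 70.4 and 77.4 against 69.6, 67.3 and 68.7, with overlap and an interval of -0.16 to 0.07. Tpx2, a spindle assembly factor, fell in all nuclei (61.6, 61.1 and 64.5 against 56.1, 57.0 and 57.3, -0.13, SE 0.05, adjusted p = 0.033), a call kept under 10 of 19 alternatives and lost without WT replicate 3 or any 1 KO replicate.

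In Late nuclei Tpx2 (60.7, 60.0 and 58.0 against 52.0, 52.8 and 52.7, -0.18, adjusted p = 0.0084) was joined by Mki67 (209, 197 and 202 against 184, 184 and 176, -0.16, adjusted p = 0.0048) and Cenpe (36.7, 39.8 and 36.0 against 32.8, 32.3 and 33.9, -0.18, adjusted p = 0.029). Mki67 encodes the Ki-67 protein that coats mitotic chromosomes, and Cenpe a kinetochore motor. Their Int values did not pass, at 256, 250 and 266 against 239, 253 and 239 for Mki67, 47.9, 46.9 and 49.8 against 46.6, 47.9 and 49.7 for Cenpe and 63.7, 62.9 and 69.4 against 59.9, 62.3 and 62.3 for Tpx2. That a gene passed in Late and not in Int does not show that its effects differed, and no member passed the test of that difference. The Cenpe call was lost without WT replicate 2 or KO replicate 1 or 2. Standardised for the share in peaks, the lower calls in Late went from 13 to 3 (Mcm3, Ccnd3 and Cdk6) and the share of all genes called lower from 18.5 to 11.7%. The median of the 39 members was -0.09 before and -0.08 after, while that of all genes went from 0.05 to -0.02. The values of Tpx2, Mki67 and Cenpe were -0.09, -0.08 and -0.16.

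Besides the G1 genes, neighbours were counted for the genes given above with a score in each library, within 100 kb of a start and in all nuclei. There was none for Cdk1, and neither of the 2 neighbours of Cenpe was tested in all nuclei. No neighbour was called for Mcm3, Mcm4, Mcm5, Mcm6, Rrm2 and Ccnb2 (2 tested each) or for Tpx2 (5 tested). Pola1 had 1 neighbour and Cenpf 1, each called lower. Mki67 had 1, called higher, Bub1 3 with 1 higher, Rrm1 3 with 2 higher and Top2a 4 with 2 higher. Ccnb1 had 4 with 1 lower, Pole 4 with 1 lower, Cdc20 5 with 1 lower, Plk1 7 with 1 lower, and Aurkb 12 with 2 higher and 1 lower.

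Between the authors' classes, scores of most of the 39 genes were lower in Late than in Int. The classes were made from these nuclei, so these values are a description without a test. Late less Int on the log2 scale was below 0 in all 6 libraries for 26 of 39 members (66.7%), against 41.4% of 15873 genes. It was above 0 in all 6 for 7 of 39 members, against 4618 of the 15873 genes. The median over members was -0.14 to -0.24 in the 6 libraries, and over all genes -0.12 to -0.02. Beside the median of genes of like mean score, 36 of 39 members were lower.

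By role, the score was lower in Late in every library for 7 of 9 licensing genes, 4 of 4 fork genes and 3 of 3 genes of nucleotide supply. The same held for 3 of 5 cyclin and Cdk1 genes, 4 of 6 spindle and chromosome genes, 4 of 5 G1 genes and 1 of 7 mitotic control genes. Beside genes of like mean score, 5 of 7 mitotic control genes, 5 of 6 spindle and chromosome genes and all genes of the other roles were lower in Late. No difference between roles was tested. Tyms was lowest: its Late less Int was -1.07, -1.37 and -1.43 in WT and -1.29, -1.09 and -1.17 in KO. Pola1 followed with -1.21, -1.33 and -0.99 in WT and -1.09, -0.94 and -1.03 in KO, then Cdk1 with means of -0.95 ± 0.16 for WT and -1.05 ± 0.05 for KO (SD, n = 3) and Rrm1 with -0.89 ± 0.07 and -0.96 ± 0.08. Mcm6, at -0.68 ± 0.17 and -0.80 ± 0.06, was lowest among the helicase subunits, while Mcm2 was at 0.13 ± 0.01 and 0.12 ± 0.01. Above 0 in all 6 libraries were Mcm2, Ccna2, Ccnb1, Aurka, Aurkb, Birc5 and Cenpf, and Aurka, a spindle pole kinase, was the highest at 0.17 ± 0.05 in WT and 0.22 ± 0.07 in KO. Late nuclei had fewer fragments, with library medians of 5693 to 6812 against 10121 to 14998 in Int, and the part of this depth was not tested.

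**Figure D4:**
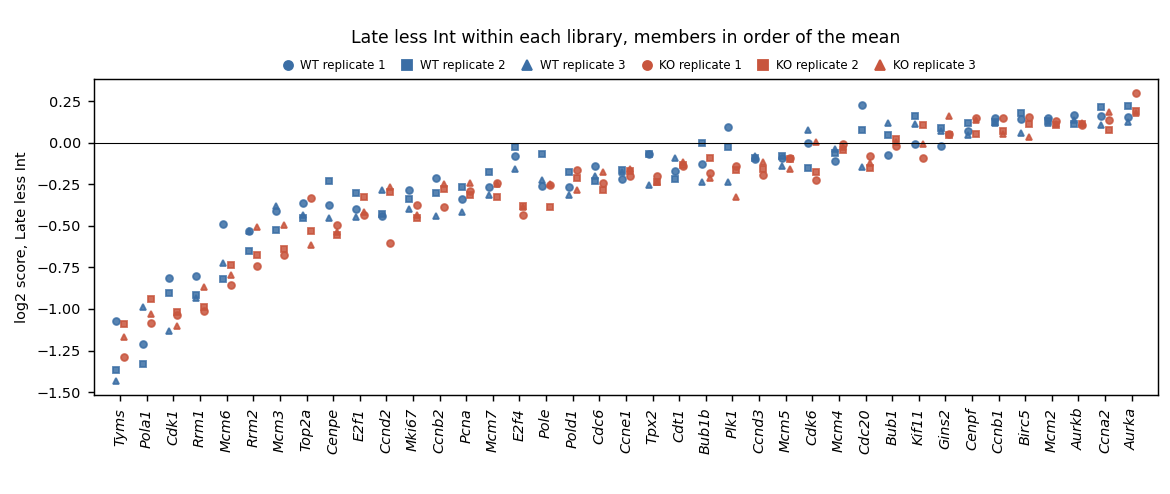
Log2 score in Late less that in Int within each library, for the 39 members in order of their mean, blue for WT and red for KO, with the shape giving the replicate number. Tyms, Pola1, Cdk1 and Rrm1 lie near or below -0.8 in every library, and the KO points of E2f4 (-0.43 to -0.38) all lie below its WT points (-0.16 to -0.02).

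Several of the authors' 11 clusters were nearly all of 1 genotype. Cluster C3 held 2847 to 4331 nuclei in each WT library and 17 to 37 in each KO library, and C2 held 2134 to 2490 in KO and 58 to 68 in WT. C5, a cluster of Int nuclei with 143 to 261 in WT and 528 to 598 in KO, was the one used for a comparison within a cluster. No member passed there by limma, and 7 of 39 had an unadjusted p under 0.05, against 13.4% of all genes. Fold changes in C5 were below 0 for 23 members and above 0 for 16, with a median of -0.04, against 0.07 over all genes. They were below 0 for 4 of 4 fork genes, 3 of 3 genes of nucleotide supply and 7 of 9 licensing genes. The same held for 3 of 5 cyclin and Cdk1 genes and 3 of 5 G1 genes. They were above 0 for 6 of 7 mitotic control genes and 4 of 6 spindle and chromosome genes. Bub1, Plk1 and Tpx2, which fell in all nuclei, were thus above 0 in C5. Bub1 scored 16.3, 18.2 and 22.9 in WT and 23.4, 27.1 and 20.4 in KO, with overlap (0.30, adjusted p = 0.62). Plk1 scored 54.7, 51.5 and 58.9 against 67.7, 57.3 and 67.6, also with overlap (0.22, adjusted p = 0.54), and Tpx2 scored 51.2, 43.8 and 51.1 against 57.0, 61.4 and 56.4, with the genotypes apart (0.26, adjusted p = 0.47). Ccnd3 in C5 scored 397, 359 and 337 in WT and 266, 275 and 283 in KO, with no overlap (-0.40, adjusted p = 0.059). E2f1 scored 167, 179 and 177 against 137, 131 and 144, again without overlap (-0.35, adjusted p = 0.14). Ccnd2 scored 3.36, 11.7 and 15.9 against 16.8, 18.6 and 13.2 and overlapped, as did E2f4 (138, 112 and 152 against 164, 140 and 137). In this fit under 1% of all genes were called in either direction, at 0.478% lower and 0.412% higher.

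A list of 91 further cell cycle genes gave the surroundings of the 39, and 90 of them were tested in all nuclei. There 9 rose and 26 fell, with a median of -0.08, where 29.1% of all genes rose and 14.2% fell. Among 31 mitosis genes 10 fell and 0 rose, among 37 replication genes 11 fell and 4 rose, among 16 genes of the G1 to S step 3 fell and 2 rose, and of 6 tested inhibitors 3 rose and 2 fell. In Late nuclei 36 fell and 10 rose (18.5% and 32.9% of all genes), and in Int 11 fell and 8 rose (7.1% and 12.7%). With level-decile centring 18 were lower and 8 higher in all nuclei (13.3% and 15.7% of all genes), 26 and 8 in Late (17.9% and 19.4%), and 8 and 9 in Int (8.12% and 11.6%). The 3 highest were Cdkn1a, the p21 inhibitor of cyclin-dependent kinases, which averaged 19.4 ± 3.24 against 65.3 ± 5.19 (WT and KO, SD, n = 3, log2 fold change 1.71, SE 0.09, adjusted p = 7.4e-10), Cdkn2b, the p15 inhibitor (5.63 ± 1.47 against 9.95 ± 2.31, 0.73, adjusted p = 0.0016), and Cdk4, the other kinase of D-type cyclins (66.1 ± 3.73 against 95.4 ± 3.08, 0.52, adjusted p = 3.0e-07). The 3 lowest were Kif18a, a kinesin of chromosome alignment (75.9 ± 4.53 against 60.7 ± 0.79, -0.32, adjusted p = 0.00010), Foxm1, a factor that drives mitotic genes (61.5 ± 2.32 against 50.5 ± 4.84, -0.28, adjusted p = 0.0017), and Spc25, a kinetochore subunit (56.3 ± 2.08 against 46.8 ± 0.86, -0.26, adjusted p = 0.00078).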

How the data were processed

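Scores, metadata and feature positions were used for the 6 Ter119+ ATAC libraries (3 WT, 3 KO, grouped by their labels). The submitters' processing notes name Cell Ranger and mm10. The deposited gene scores are a signal per gene and nucleus that the authors had scaled, and each nucleus summed to between 9999.855 and 10000.12. The deposited table of nuclei gave the count of fragments, the share of fragment ends in peaks and a doublet score per nucleus, with class, cluster and genotype assigned by the authors; how was not given in the sources used here. It held 2 identical copies of 34073 nuclei, and 1 was used. Of the nuclei, 4.34% had a barcode sequence that occurs in another library. Rows of the score table carry no gene names and were read in the order of the feature table: adjacent genes with starts within 1 kb correlated across clusters with a median r of 0.948 (n = 1442), against 0.369 (n = 574) for distant ones, as a description. Starts of 35 of 39 members lay within 1000 bp of RefSeq.

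Scores were averaged per library over all, Int or Late nuclei, rescaled to 1000000, filtered at a mean of 5 and compared as log2(score + 1) with limma 3.58.1 in R 4.3.3 (lmFit, eBayes with trend, two-sided, Benjamini-Hochberg over all genes tested, threshold 0.05). Fold changes on that scale understate changes of low genes. Whether the KO effect differed between the classes was tested on the difference of Late and Int within each library. Standardised values averaged nuclei in 5 bins of fragments or of the share in peaks with the same weights in each library. For all nuclei these bins were also split by class, which fixes the mix of classes and leaves out Early, so that 97.9% of nuclei were used. The fit was also run on simulated libraries, as a check of the fit only. Their means and spreads were taken from the all-nuclei scores, with independent noise and no shift of the fold change with level. No nucleus was removed as a doublet, and an alternative left out the 5% of nuclei with the highest doublet scores. Apart from that, alternatives changed 1 choice each and covered scaling, filter, pseudocount, variance trend, block, nuclei and single libraries. Tables were made in Python 3.11.15 with numpy 2.4.6 and pandas 2.3.3, and figures with matplotlib 3.10.9.

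Members, lists and rules were chosen with earlier results of these data known. The rule named in each role group the highest and lowest fold change in all nuclei, the G1 genes, and members whose call or sign differed between Int and Late. C5 values of single genes and the Pxmp2, Dctn5 and Exoc3l values were picked after seeing them.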

Additional observations from a re-analysis of the deposited data

How the results depend on the processing

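The number of libraries limits the precision. Of the calls in all nuclei, those of Pole, Ccnd3 and Ccnd2 were kept wherever they were tested, and so was that of Ccnd3 in Late. Leaving out 1 library at a time gave 4 to 9 lower members in all nuclei (10.4 to 13.1% of all genes). It gave 1 to 5 in Int (4.7 to 7.5%) and 8 to 14 in Late (14.0 to 18.3%). Higher members numbered 1 to 1 in all nuclei (19.3 to 35.5% of all genes), 0 to 2 in Int (8.3 to 17.0%) and 1 to 1 in Late (27.9 to 30.8%). In the test of the difference 0 to 1 passed. The 1 was without WT replicate 3, where 0.63% of all genes were called lower and 4.64% higher. For E2f4 that difference ranged from -0.35 to -0.28.

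Lower members numbered 28 in all nuclei, 16 in Int and 28 in Late with median centring, where 31.2%, 21.6% and 28.2% of all genes were called lower. Without a variance trend they numbered 4 in all nuclei (8.59% of all genes) and 0 in Int (1.87%), standardised for fragments and class, without Early, 15 in all nuclei (18.0%), standardised for the share in peaks 3 in Late (11.7%), with no filter 1 in Int (3.59%), with level-decile centring 2 in Int (8.12%) and in C5 alone 0 (0.478%). Higher members numbered 2 in all nuclei with quantile normalization (14.416% of all genes called higher), cyclic loess (15.999%) and level-decile centring (15.717%). In Int they numbered 2 with the same settings (10.712%, 11.492% and 11.616%) and standardised for the share in peaks (12.846%). In C5 alone they numbered 0 (0.412%). They numbered 0 in Late with quantile normalization (17.588%), with level-decile centring (19.376%) and standardised for the share in peaks (10.074%). With a minimum mean of 20 Ccnd2 was not tested and 0 were higher in all nuclei (18.327%), Int (15.543%) and Late (18.908%). The sign of Rrm2 in all nuclei turned to a lower call with quantile normalization (-0.27), cyclic loess (-0.25) and level-decile centring (-0.26).

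For E2f4 the difference of the KO effect kept its size of -0.31 and passed with a minimum mean of 20 (1 member called). There 1.236% of all genes were called lower and 1.009% higher. The difference also passed with the variance trend on the mean score (1 member called), where 2.205% of all genes were lower and 4.202% higher. With no filter and with no variance trend no member passed. The like-level distance in Late was -0.04 with 10 bins, -0.0503 with 5 and -0.0471 with 20. Causes of these changes were not tested.

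Replicate numbers were not taken to pair the libraries. Over all genes, deviations of same-numbered libraries correlated at -0.12, -0.27 and 0.21 in all nuclei, 0.13, -0.08 and 0.19 in Int and 0.09, 0.05 and 0.05 in Late. Differently numbered libraries correlated at -0.325 to 0.422 in all nuclei, -0.257 to 0.183 in Int and -0.071 to 0.020 in Late. These values describe all genes together and cannot exclude pairing at single genes. With the replicate number as a block, 9 members were lower in all nuclei (14.404% of all genes), 5 in Int (8.287%) and 14 in Late (17.607%). In each of these fits 1 was higher, where 27.842%, 14.97% and 32.639% of all genes were called higher. With this block E2f4 had an adjusted p of 0.14 by limma for the difference.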

Other observations

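Kif11, a kinesin that separates spindle poles, was high in replicate 2 of both genotypes. It scored 63.2, 86.8 and 60.3 in WT and 61.5, 80.0 and 56.6 in KO in all nuclei. The pattern was present in Int (81.1 in WT and 76.7 in KO replicate 2, against 58.2 to 63.4 in WT and 56.7 to 61.9 in KO) and in Late (90.8 and 82.7, against 62.9 to 63.1 and 56.4 to 58.1). Ide, whose start lies 38551 bp upstream, was also highest in replicate 2 of each genotype, at 18.8 in WT and 17.5 in KO against 8.55 to 12.4 in the other 4 libraries. Hhex, 58438 bp downstream, was highest in replicate 2 of WT (9.78) but in replicate 1 of KO (11.5) in all nuclei. The same replicates were highest for Hhex in Late (6.18 and 6.80), while in Int replicate 2 was highest in both genotypes (11.2 in WT and 13.1 in KO). Kif11 itself was lower in KO than in WT at each replicate number in all nuclei, in Int and in Late, though replicate numbers were not taken to pair the libraries. Kif11 passed in none of the 3 fits, and with the replicate number as a block it was called lower in Late (-0.14, adjusted p = 0.039). The source of this pattern was not tested.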
